A study of Saccharomyces cerevisiae with 2 samples.

Results

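The genes described here encode the 31 subunits of the yeast 26S proteasome that were selected by systematic name, together with RPN4, the gene of the transcription factor that drives them. They comprise 14 core particle subunits, 6 RPT ATPases, 11 RPN subunits and RPN4, that is 32 of 6207 features on the array. The rule that selects them uses names and no measured value, though it was drawn up with earlier results of these data known. RPT5 (YOR117W) and RPN1 (YHR027C) had no value on either array, PRE8 and RPN3 had one on array 2 only, and the other 28 genes were measured on both.

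The arrays compared RNA of a mid2 mutant of Saccharomyces cerevisiae kept for 4 h with 30 µg/ml Congo Red against RNA of the same mutant left untreated, both in YEPD at 24 °C. The strain background was BY4741, a haploid of the a mating type that lacks HIS3, LEU2, MET15 and URA3. Mid2 is a sensor of wall stress in the plasma membrane, and Congo Red is a dye that binds wall chitin and glucan. Both RNAs on each array lacked Mid2, and wild-type cells were not analysed here, so the ratios do not bear on the loss of the sensor. Array 1 carried Congo Red RNA in Cy3 and array 2 in Cy5. These were the only 2 arrays, which limits the precision of every value. The labels speak of 2 cultures with a dye swap each, which is more than the 2 arrays in the series. They do not say whether these arrays came from separate cultures, so the spread between the arrays may be technical.

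The 26S proteasome is the protease that degrades proteins tagged with ubiquitin. Its core particle is a barrel of alpha rings, which gate the entry, and beta rings, which hold the active sites. The regulatory particle caps the barrel. Its base unfolds substrates with the RPT ATPases, and its lid removes the ubiquitin chain. In budding yeast Rpn4 activates the genes of most subunits and is itself degraded quickly by the proteasome, so that a shortage of proteasomes raises Rpn4 and with it subunit synthesis.

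Values are log2 ratios as deposited. A positive ratio is read as higher with Congo Red, a convention that is not settled. The columns correlated positively over 2738 features (Pearson r = 0.48, Spearman rho = 0.34, over features, which are no replicates of each other) in spite of the dye swap, as they would if both had been turned to the same orientation. The correlation would be the same with both turned to untreated over treated, and a dye bias shared by the arrays would also give it in ratios never turned, and the labels do not tell these cases apart. The median of these features was −0.27 on array 1, −0.18 on array 2 and −0.24 in the mean of both, so positions are given relative to these medians. Array 1 gave 2832 values and array 2 gave 3440. Signal over background was unknown, since no intensities were used here.

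Proteasome genes were measured more often than most: 28 of 32 genes, or 87.5%, had a value on both arrays, against 44.1% of all features. No subunit gene and not RPN4 passed the test of the mean ratio. Limma called 0 of the 28 genes at a Benjamini-Hochberg adjusted p under 0.05, against 0 of 2738 features (0%), and the smallest adjusted p among the genes was 0.320. Before adjustment, p was under 0.05 for 1 gene with a positive mean, RPN2, against 6.28% of all features, and for 1 with a negative mean, RPT6, against 7.27%. With each array centred on its median, the 2 genes under 0.05 were RPN2 and PRE10, both positive, against 8.18% of all features on that side, and 0 genes were negative, against 2.89%. In both fits the counts lie near or below the share among all features. In bulk RNA of a culture, a change in all cells cannot be told apart from a larger one in some of them.

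What the genes shared was a difference between the arrays. The dye of the Congo Red RNA also changed between the arrays, so array and dye cannot be told apart in this difference. Of the 28 genes, 24 lay above the median of array 1 and 22 lay below the median of array 2. Both held for 19 genes, or 67.9%, against 20.7% of all features. The reverse, below the median of array 1 and above that of array 2, held for 1 gene, against 20.7% of all features. Another 5 genes lay above both medians, against 29.3%, and 3 lay below both, against 29.3%. The median gene had 0.12 on array 1 and −0.42 on array 2, which is 0.39 above and 0.24 below the array's median. The mean of both arrays therefore stood near the centre, with a median 0.15 above that of all features. Only 9 of the 28 genes had the same sign on both arrays, against 1926 of 2738 features.

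**Figure D1:**
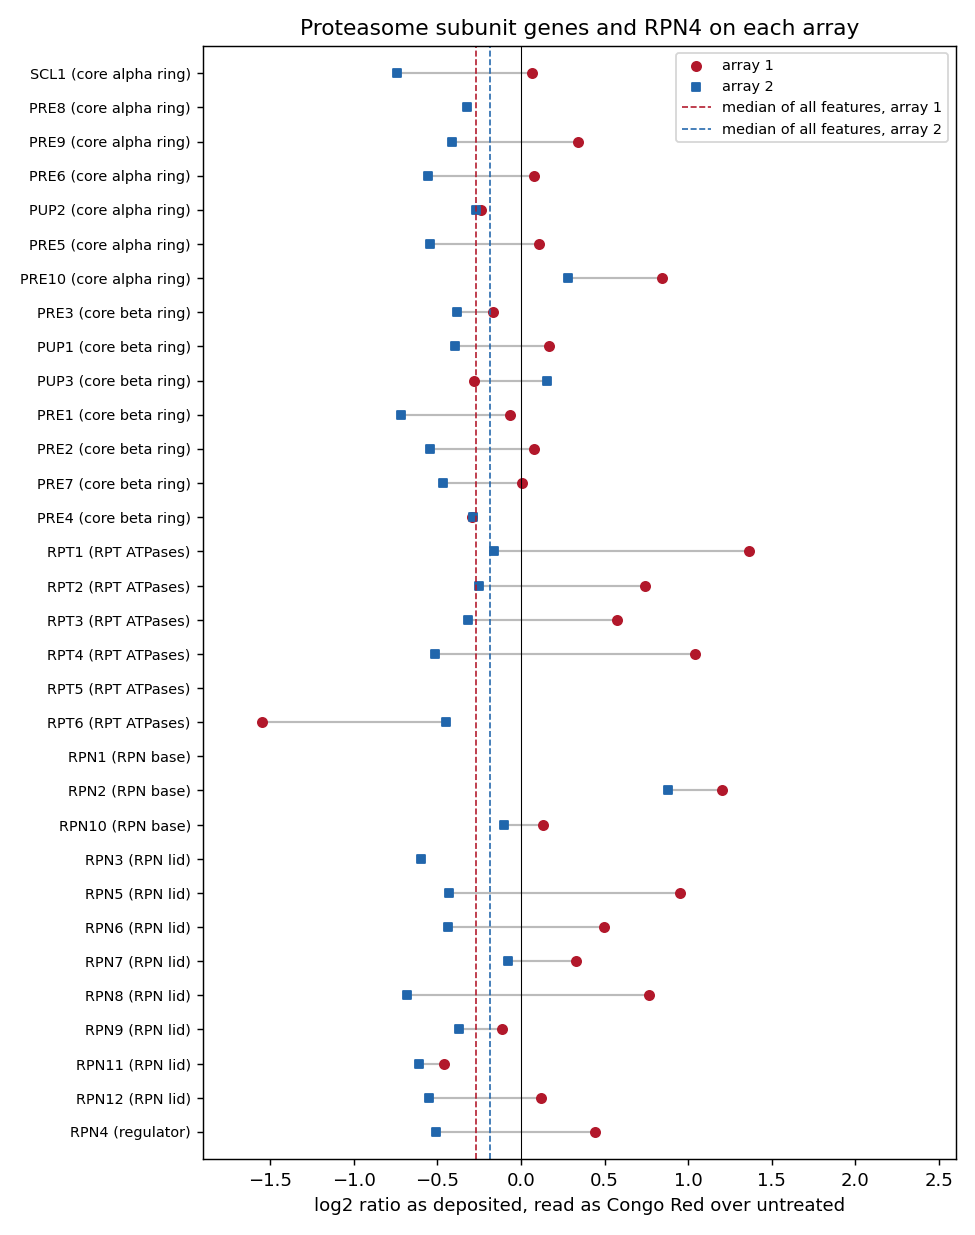
Deposited log2 ratio of each proteasome gene on array 1 (red circles) and array 2 (blue squares), joined by a grey line where both exist, with the median of all features on each array as a dashed line. Most circles lie right of the red line and most squares left of the blue one, and RPT5 and RPN1 have no point.

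The alpha ring genes showed this split in 5 of 6 measured members. SCL1 (YGL011C) and PRE9 (YGR135W) encode subunits 1 and 3 of the ring, and PRE9 is the core gene that yeast can live without. SCL1 had 0.07 on array 1 and −0.74 on array 2, and PRE9 had 0.34 on array 1 and −0.41 on array 2. PRE6 (YOL038W), subunit 4, had 0.08 on array 1 and −0.55 on array 2. PRE5 (YMR314W), subunit 6, had 0.11 on array 1 and −0.54 on array 2. In each of these 4 genes the arrays differed in sign and by at least 0.63. PUP2 (YGR253C), subunit 5, was close to both medians with −0.24 and −0.27 (mean −0.25 ± 0.02, SD, n = 2). PRE8 (YML092C), subunit 2, had −0.32 on array 2 alone.

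PRE10 (YOR362C), subunit 7, stood apart from its ring. It had 0.84 on array 1 and 0.28 on array 2, above the median on both arrays, with a mean of 0.56 ± 0.40 (SD, n = 2) and limma adjusted p = 0.434. The mean lay 0.80 above that of all features, while those of the other 5 measured alpha genes lay between −0.09 and 0.21 relative to it. With each array centred on its median, PRE10 reached an unadjusted p under 0.05.

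The beta ring genes had means from −0.39 to −0.06. The active sites are made by PRE3 (YJL001W), PUP1 (YOR157C) and PRE2 (YPR103W), known for caspase-like, trypsin-like and chymotrypsin-like cleavage. PRE3 had −0.17 on array 1 and −0.38 on array 2, PUP1 had 0.17 on array 1 and −0.39 on array 2, and PRE2 had 0.08 on array 1 and −0.54 on array 2. All of these catalytic genes lay above the median of array 1 and below that of array 2, and their means lay between −0.03 and 0.13 relative to all features. PRE1 (YER012W), subunit 4, showed the same split with −0.06 on array 1 and −0.72 on array 2. PRE7 (YBL041W), subunit 6, had 0.01 on array 1 and −0.47 on array 2. PRE4 (YFR050C), subunit 7, differed least between arrays of all 28 genes, with −0.29 on array 1 and −0.28 on array 2. PUP3 (YER094C), subunit 3, was the only gene of the 28 below the median of array 1 and above that of array 2. It had −0.28 on array 1, just under its median, and 0.16 on array 2. Across the core particle the median of 13 genes was 0.0097 above that of all features, at 0.33 above on array 1 and 0.23 below on array 2.

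The RPT ATPases, which form the ring that unfolds substrates, showed the widest differences between the arrays. RPT1 (YKL145W) had 1.36 on array 1 and −0.16 on array 2. RPT4 (YOR259C) had 1.04 on array 1 and −0.51 on array 2. Their differences of 1.52 and 1.55 exceeded those of 97.0% and 97.2% of all features. RPT2 (YDL007W) had 0.74 on array 1 and −0.25 on array 2. RPT3 (YDR394W) had 0.58 on array 1 and −0.32 on array 2. In these genes the spread outweighed the mean, as in RPT1 with 0.60 ± 1.08 (SD, n = 2) and RPT4 with 0.26 ± 1.10 (SD, n = 2), and limma gave adjusted p = 0.532 and 0.740.

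RPT6 (YGL048C) was opposite to the other measured ATPase genes on array 1 but not on array 2, where all 5 were negative and RPT4 was lower. It had −1.55 on array 1 and −0.45 on array 2, the lowest value of any proteasome gene on array 1 and below the median on both arrays. Its mean was −1.002 ± 0.778 (SD, n = 2), or 0.499-fold, with limma adjusted p = 0.363. After each array had been centred on its median, RPT6 no longer reached an unadjusted p under 0.05. It did not meet the limits of size, which ask for a mean ratio of 2-fold and, on each of the arrays, 1.5-fold to the same side, since its ratio on array 2 was too small. The median of the 5 measured RPT genes was 0.49 above that of all features, at 1.01 above on array 1 and 0.13 below on array 2.

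RPN2 (YIL075C), a large scaffold subunit of the base, was the gene with the highest mean. It had 1.21 on array 1 and 0.88 on array 2, positive on both arrays and the highest of the 30 values on array 2. Its mean of 1.04 ± 0.23 (SD, n = 2), a 2.06-fold ratio, exceeded that of 95.1% of all features. RPN2 alone among the 28 genes met these limits with a positive ratio, against 4.13% of all features, and 0 genes met them with a negative ratio, against 2.81%. Limma gave adjusted p = 0.320. Its partner scaffold RPN1 had no value. RPN10 (YHR200W), a receptor for ubiquitin chains, had 0.13 on array 1 and −0.10 on array 2, above both medians by less than 0.40, with a mean of 0.01 ± 0.16 (SD, n = 2).

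Among the lid genes the split recurred in 5 of 7 measured members. RPN8 (YOR261C), which pairs with the deubiquitinase Rpn11, had 0.77 on array 1 and −0.68 on array 2. RPN5 (YDL147W), a scaffold subunit, had 0.95 on array 1 and −0.43 on array 2. RPN6 (YDL097C), which clamps the lid to the core, had 0.50 on array 1 and −0.43 on array 2. Their differences of 1.45, 1.38 and 0.93 exceeded those of at least 92.6% of all features. RPN12 (YFR052W) had 0.12 on array 1 and −0.55 on array 2, and RPN9 (YDR427W) had −0.12 on array 1 and −0.37 on array 2. RPN7 (YPR108W) lay above both medians with 0.33 on array 1 and −0.07 on array 2.

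RPN11 (YFR004W), the metalloprotease that cuts the ubiquitin chain off the substrate, lay below both medians. It had −0.46 on array 1 and −0.61 on array 2, a mean of −0.54 ± 0.11 (SD, n = 2), and limma adjusted p = 0.407. RPN3 (YER021W) had −0.60 on array 2 alone. The median of the 9 measured RPN genes was 0.27 above that of all features, at 0.60 above on array 1 and 0.24 below on array 2. Taken as a whole, the median regulatory particle gene stood 0.80 above the median of array 1 and the median core gene 0.33 above it, while on array 2 they stood 0.21 and 0.23 below. This difference between the particles was not tested.

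RPN4 (YDL020C) followed the majority of the subunit genes. It had 0.44 on array 1 and −0.51 on array 2, above the median of array 1 and below that of array 2. Its mean was −0.03 ± 0.67 (SD, n = 2), with limma adjusted p = 0.964. The difference of 0.95 exceeded that of 92.9% of all features. Of the transcription factor genes known to act on RPN4, only PDR3, a regulator of drug resistance, had values on both arrays, −1.30 on array 1 and −0.34 on array 2, both below the medians. HSF1, the heat shock factor, had −1.85 on array 1 alone, and YAP1 and PDR1 had no value.

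**Figure D2:**
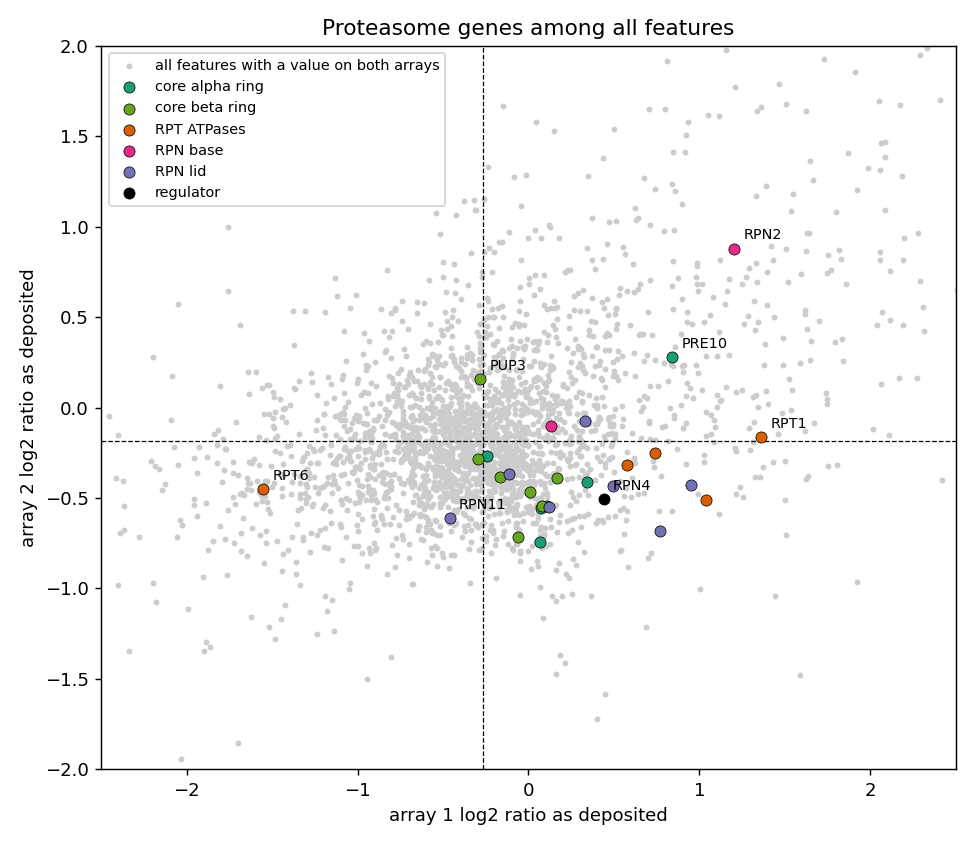
Log2 ratio on array 1 against array 2 for all 2738 features (grey, 103 lie outside the axes) and for the proteasome genes, coloured by subgroup, with dashed lines at the array medians. Of the 28 genes, 19 fall in the lower right field, and RPN2, PRE10 and RPT6 lie away from them.

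The genes were less spread out than all features on array 2, with an interquartile range of 0.28 against 0.50, and about as wide on array 1, with 0.69 against 0.74. Longer genes tended to have higher ratios on array 1 (Pearson r = 0.50, Spearman rho = 0.64 over 28 genes of the same array) and, by rank less so, on array 2 (r = 0.58, rho = 0.29). RPN2, the longest of these genes at 2838 bp, also had the highest value on array 2, 0.88. The relation without RPN2 was not computed. Over 2600 features with a known length the relation on array 1 was weak (r = 0.03, rho = 0.14). Most RPT and RPN genes are longer than the core genes, so length and particle cannot be told apart here.

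The difference between arrays, array 1 minus array 2, was 0.63 in the median proteasome gene and −0.12 in the median feature, and it was positive in 25 of 28 genes, against 41.6% of all features. Other protein complexes, chosen after these values had been seen, also differed between the arrays. Above the median of array 1 and below that of array 2 lay 81 of 129 cytosolic ribosomal protein genes (62.8%), against 20.7% of all features. The same held for 4 of 12 genes of the vacuolar proton ATPase (33.3%) and 1 of 8 genes of the chaperonin CCT (12.5%), the last below that share and neither compared with it by a test. The ribosomal list was taken by name alone, from names that begin with RPL, RPS or RPP and a digit. It holds RPL40A, RPL40B and RPS31, which are also in the ubiquitin list below. The median differences of the ribosomal, vacuolar ATPase and CCT genes were 0.27, 0.55 and 0.69, against −0.12 for all features. The ribosomal protein genes thus took the same side on each array as the proteasome genes, and the difference between arrays is not particular to the proteasome.

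**Figure D3:**
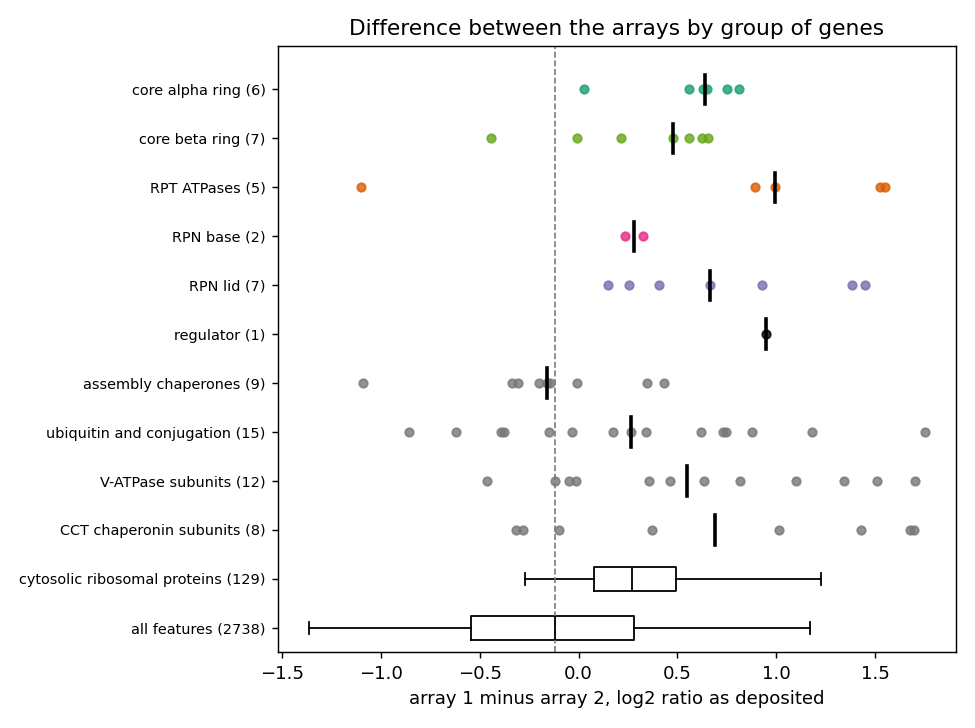
Array 1 minus array 2 in log2 ratio for each measured gene of the proteasome subgroups and of other groups, with a black bar at each group's median. Ribosomal protein genes and all features are drawn as boxes with quartiles and whiskers from the 5th to the 95th percentile, and the dashed line is the median of all features, −0.12; 25 of 28 proteasome genes lie right of 0.

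Were the columns ratios of Cy5 over Cy3 that had never been turned, the treatment would lie in the difference between the arrays and not in their mean. Read so, the median proteasome gene had −0.31, or 0.37 below the median of all features, with −0.34 for the core genes, −0.56 for the RPT genes and −0.26 for the RPN genes relative to that median. In that reading too limma called 0 of the 28 genes at an adjusted p under 0.05, against 0.11% of all features. At an unadjusted p under 0.05 it gave 0 genes on the negative side, against 0.511%, and 0 on the positive side, against 0.877%. Which reading holds was not tested, and the side on which the RPT and RPN genes lie depends on it.

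Genes that act with the proteasome did not show 1 common side. The assembly chaperones, which help build the particles and do not stay in them, were all measured, and 6 of 9 lay below both medians, against 29.3% of all features. PBA1, which helps form the alpha ring, had −1.46 on array 1 and −0.37 on array 2. IRC25, of the same task, had −0.71 on array 1 and −0.57 on array 2. NAS6 and HSM3, chaperones of the base, were highest in the list, NAS6 with −0.34 on array 1 and −0.03 on array 2, and HSM3 with −0.07 on array 1 and −0.41 on array 2. UMP1, the maturation factor of the core, which lies outside the naming rule, had −0.12 on array 1 and −0.55 on array 2. UMP1 and HSM3 showed the split of the proteasome genes, 2 of 9 (22.2%), against 20.7% of all features. The median chaperone gene lay 0.34 below that of all features on array 1 and 0.26 below on array 2, whereas the proteasome genes lay above the median of array 1. Limma called 0 of the 9, also at an unadjusted p under 0.05.

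Genes that bring ubiquitinated proteins to the proteasome lay above both medians in 2 of 4 cases with values on both arrays, against 29.3% of all features. With a value on array 2 alone, DSK2 had 1.10, SHP1 had −0.02 and OTU1 had 0.03. CDC48, the ATPase that extracts ubiquitinated proteins from complexes and membranes, had 0.92 on array 1 and 1.42 on array 2 (mean 1.17 ± 0.35, SD, n = 2, limma adjusted p = 0.307). RAD23, a shuttle factor, had 0.53 on array 1 and 0.62 on array 2. The lowest of this list were NPL4, a Cdc48 cofactor, with a mean of −0.20 ± 0.17 (SD, n = 2), and UFD2, which extends ubiquitin chains, with −0.22 ± 0.08 (SD, n = 2). NPL4 and UFD2 showed the split of the proteasome genes, 2 of 4, against 20.7% of all features. UBA1, the enzyme that activates ubiquitin, had 0.84 on array 1 and 1.24 on array 2 (limma adjusted p = 0.325). CDC48 and UBA1 thus had their higher value on array 2, unlike most proteasome genes but like most features. Array 1 exceeded array 2 in 41.6% of all features. Both genes met the limits of size with a positive ratio, as did 4.13% of all features.

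The 15 genes of ubiquitin and its conjugation were all measured, and 7 of them (46.7%) showed the split of the proteasome genes, against 20.7% of all features. UBI4, the gene of polyubiquitin, had 0.14 on array 1 and −1.04 on array 2. RPL40A and RPL40B, named here after their values were seen, encode ubiquitin fused to a ribosomal protein and had 0.07 and −0.06 on array 1 and −0.66 and −0.68 on array 2. RPS31, the other fusion gene of the list and also named after its values were seen, did not show the split, with −0.18 on array 1 and −0.15 on array 2, above both medians. These 4 genes share the ubiquitin sequence, so their values are not independent and cross-hybridisation cannot be separated. UBI4, RPL40A and RPL40B are among the 7 with the split, and RPL40A and RPL40B also count among the ribosomal protein genes. CDC34, a conjugating enzyme of the cell cycle, had 1.26 on array 1 and −0.49 on array 2. UBC6, a conjugating enzyme of the endoplasmic reticulum, lay below both medians with −0.54 on array 1 and −0.88 on array 2 (limma adjusted p = 0.363).

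Few ubiquitin ligases and deubiquitinases were measured. Of 15 ligase genes 3 had values on both arrays: UBR1, the ligase of the N-degron pathway, with 0.67 on array 1 and 0.0040 on array 2, RSP5, a ligase of membrane protein sorting, with −0.05 and 0.13, and DOA10, a ligase of the endoplasmic reticulum, with −1.37 and 0.10. UBR2, known to mark Rpn4 for degradation, had −1.31 on array 2 alone, and its partner MUB1 had no value. Of 12 deubiquitinase genes 4 had both values. UBP15 had 1.36 on array 1 and 1.66 on array 2 (mean 1.51 ± 0.21, SD, n = 2, limma adjusted p = 0.187), the highest mean of all genes in these lists. YUH1 lay below both medians with −1.10 on array 1 and −0.64 on array 2, as did UBP12 with −0.34 and −0.97, while UBP7 had −0.14 and −0.50. Over these lists limma called 0 genes at an adjusted p under 0.05.

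Among subunits and partners of the mature particle that were not in the set, RPN13, a ubiquitin receptor, had −0.16 on array 1 and −0.18 on array 2. UBP6, a deubiquitinase bound to the base, had −0.04 on array 1 and 0.02 on array 2. Both lay above the medians, RPN13 by 0.11 on array 1 and only 0.007 on array 2, and UBP6 by 0.23 and 0.21. Their SDs were 0.01 and 0.04 (n = 2). FUB1 had −0.78 on array 1 and 0.54 on array 2. For the label of mating type a, 5 of 7 a-cell genes had values on both arrays, and 4 of these lay below both medians, against 29.3% of all features. MFA2, a gene of the a pheromone, had a mean of −0.83 ± 0.21 (SD, n = 2), AGA2, of the a agglutinin, −0.63 ± 0.06 (SD, n = 2) and ASG7 −0.61 ± 0.03 (SD, n = 2). STE2, the receptor of the alpha pheromone, lay above both medians with 2.02 on array 1 and −0.12 on array 2. Of 4 alpha-cell genes only MFALPHA2 had any value, −0.98 on array 1 and 0.07 on array 2. A ratio gives no level, so it cannot show whether these transcripts were present.

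**Figure D4:**
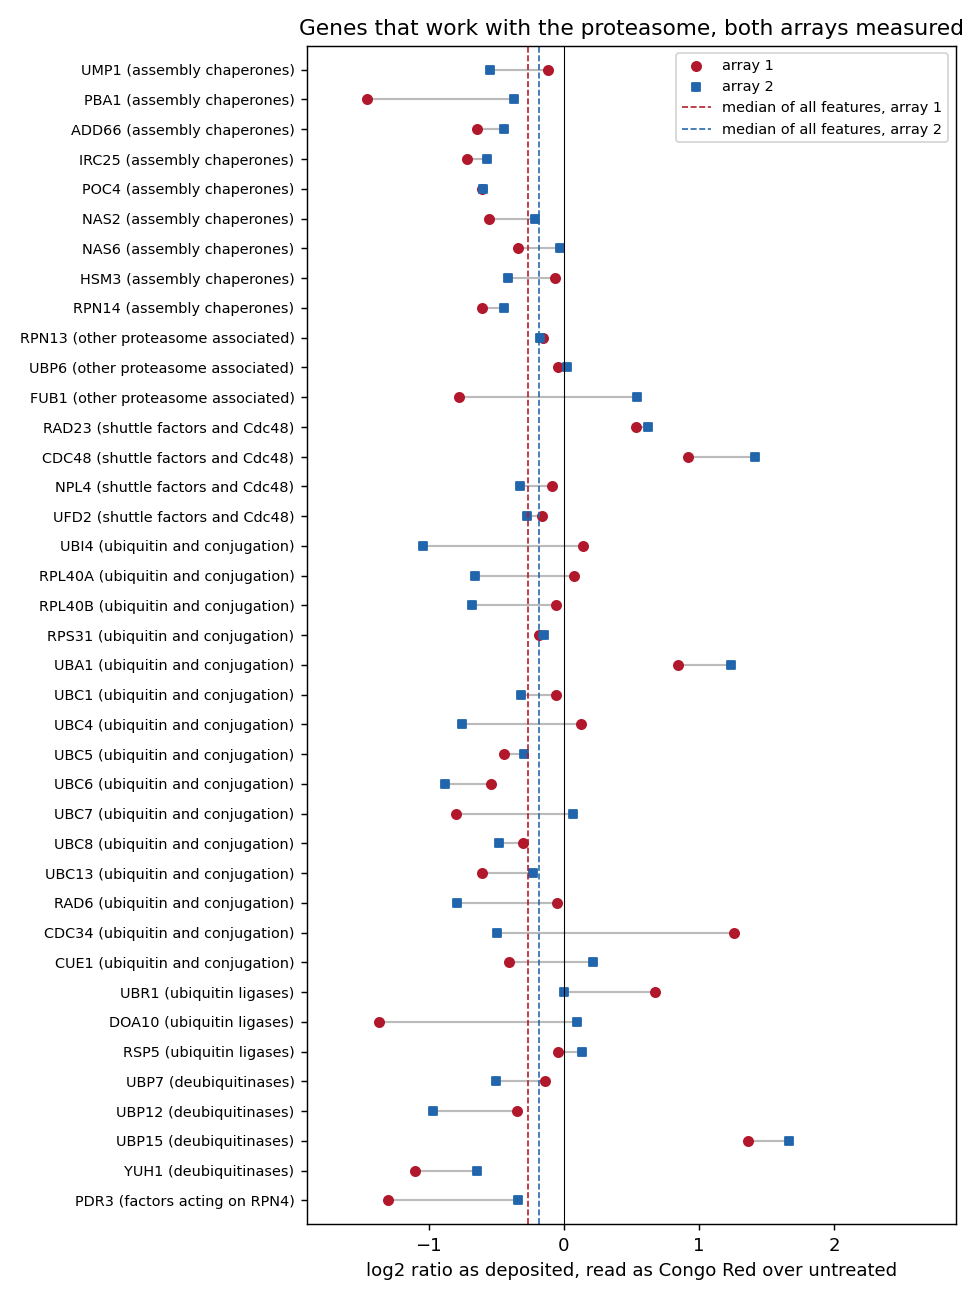
Deposited log2 ratio on array 1 (red circles) and array 2 (blue squares) of each gene of the proteasome's partners with both values, grouped by list, with dashed lines at the array medians. UBP15, CDC48, UBA1 and RAD23 lie right of both lines with their square farther right, as do RSP5, UBP6 and RPS31 nearer the lines. Of the assembly chaperones, 6 of 9 lie left of both.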

How the data were processed

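Per the labels' protocols, cDNA of total RNA carried Cy5 or Cy3 and was hybridised on 2-channel arrays with the dyes swapped between arrays. The authors deposited 1 value per feature and array, taken here as a log2 ratio because 2 to the power of the value is a number of 4 decimals for all 2832 values of array 1 and 3440 of array 2 (relative tolerance 3e-09). Not given in the sources used here are channel order, scanner, normalization within arrays and the reason for empty cells. The deposited log2 ratios were used without further centring, after leaving out 2 control features. Names came from locus tags of a RefSeq gene table (assembly R64), of which 5654 features matched. The mean ratio was tested against 0 over the 2738 features with both values with limma 3.58.1 (R 4.3.3; lmFit, then eBayes), as a two-sided test adjusted over all of them after Benjamini and Hochberg, and the code was tested on simulated data. Positions of gene lists are descriptions with no test. Named were all members and the 2 highest and 2 lowest means of each list. Members and lists were chosen with earlier results of these data known. Alternatives were arrays centred, scaled or quantile normalized, unturned columns, robust moderation, other thresholds, values on either array and each array left out. Figures were drawn with matplotlib 3.10.9.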

Additional observations from a re-analysis of the deposited data

How the results depend on the processing

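With 2 arrays and 1 residual degree of freedom, the absence of calls says nothing about stability. No paired analysis was possible because the series holds a single group whose ratios already compare Congo Red with untreated RNA on the same array. Limma called 0 features and 0 proteasome genes as deposited and after centring, scaling, quantile normalization, robust moderation or at an adjusted p under 0.10. Read as never turned, it called 3 features and 0 proteasome genes. At an unadjusted p under 0.05 it gave 371 features and 2 proteasome genes as deposited, 303 and 2 (RPN2 and PRE10) after centring, and 38 and 0 as never turned, the centred and unturned counts having been added after seeing the data. The limits of size took 1 proteasome gene as deposited, 0 as never turned, 2 at a mean of 1.5-fold with the same sign, and between 0 and 4 with either array left out, where a value of 2-fold was asked of the other. The median of the proteasome genes relative to all features was 0.15 as deposited and −0.37 as never turned, and that of the RPT genes 0.49 and −0.56. With 1 array left out it ranged from −0.24 to 0.39 for all proteasome genes, from −0.13 to 1.01 for the RPT genes, from −0.24 to 0.60 for the RPN genes and from −0.23 to 0.33 for the core genes, so that a position above the median rests on array 1. Of 28 members, the mean relative to all features changed sign in 20 as never turned, 14 without array 1, 6 without array 2, and 5 each after scaling and quantile normalization. Centring took away the offset of −0.24 in the median of all features. A search of promoters for the Rpn4 element was not run.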
